A study of Homo sapiens with 14 samples.

Results

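The genes described here are the zinc-finger genes of human chromosome 19 that carry a ZNF symbol followed only by digits. They number 240 of the 20037 protein-coding genes of the annotation, and they lie in tandem runs along both arms of the chromosome. Chromatin immunoprecipitation followed by sequencing (ChIP-seq) of the transcription factor GATA3 gave 12 peak lists, whose 433307 peaks merged into 78999 regions of 1 or more overlapping peaks. Of these, 254 regions overlapped the span of a ZNF-number gene or the 10 kb on either side of it, and each was counted once. The gene spans with their flanks join into 117 windows that cover 10.2 Mb (hg38).

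The cells came from the established line MDA-MB-231, a model of triple-negative breast cancer, and were harvested on day 3. They carried A442M, G444E or wildtype (WT) GATA3, each with a FLAG tag on the C-terminal end (A442M-FLAG, G444E-FLAG, WT-FLAG) or untagged (A442M, G444E, WT), with 2 libraries in each of the 6 groups. Per the series' design text the tag stabilizes GATA3 protein whatever the mutation. All libraries were made with an antibody against GATA3, in tagged and untagged cells alike. No list from the 2 empty-vector samples was used here, and the values below have no background measured without GATA3. The labels do not say that replicates were separate cultures, so a p-value speaks of the spread between libraries only, and that spread may be technical. Peak lists do not measure expression, so the markers of the cell line were not checked.

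Most proteins of this family join a KRAB domain to a row of C2H2 zinc fingers. The fingers read DNA, and the KRAB domain recruits TRIM28 (KAP1), which brings the histone methyltransferase SETDB1 and HP1 proteins. Many of these proteins silence transposable elements, and the genes multiplied by tandem duplication, so that neighbours are close copies of each other. The 3′ parts of the genes are known to carry the heterochromatin mark H3K9me3 and HP1 in many cell types. GATA3, a luminal breast transcription factor, also has zinc fingers, which bind the letters GATA, but it belongs to a separate family.

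An 18-base stretch was shared by 4 promoters with GATA3 calls in every library. The promoters of ZNF823, ZNF44, ZNF799 and ZNF443, all KRAB-type zinc-finger genes on the short arm, each overlapped a region called in all 12 libraries, and they held AGATCGCTTCTTCTGTCA in common. The promoters are shown whole, 250 bases before to 50 after the gene start, from RefSeq (GRCh38.p14), each on the minus strand and written 5′ to 3′ along the gene, with the shared stretch in capitals. The table gives 1 start per gene, which need not be the outermost: that of ZNF799 lies inside the gene span. They lie at chr19:11738897-11739196 (ZNF823), chr19:12294834-12295133 (ZNF44), chr19:12401222-12401521 (ZNF799) and chr19:12440972-12441271 (ZNF443).
ZNF823: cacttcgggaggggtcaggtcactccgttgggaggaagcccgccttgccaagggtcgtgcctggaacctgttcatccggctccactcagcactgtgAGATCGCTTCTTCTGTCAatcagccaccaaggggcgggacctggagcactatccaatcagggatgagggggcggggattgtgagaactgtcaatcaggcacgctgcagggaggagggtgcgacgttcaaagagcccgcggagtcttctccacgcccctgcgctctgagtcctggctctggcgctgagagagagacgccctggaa
ZNF44: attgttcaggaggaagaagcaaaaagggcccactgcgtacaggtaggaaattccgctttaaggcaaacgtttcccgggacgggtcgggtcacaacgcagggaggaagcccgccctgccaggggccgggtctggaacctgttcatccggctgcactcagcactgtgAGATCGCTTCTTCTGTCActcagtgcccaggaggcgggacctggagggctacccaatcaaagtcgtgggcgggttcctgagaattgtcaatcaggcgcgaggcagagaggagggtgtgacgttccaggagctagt
ZNF799: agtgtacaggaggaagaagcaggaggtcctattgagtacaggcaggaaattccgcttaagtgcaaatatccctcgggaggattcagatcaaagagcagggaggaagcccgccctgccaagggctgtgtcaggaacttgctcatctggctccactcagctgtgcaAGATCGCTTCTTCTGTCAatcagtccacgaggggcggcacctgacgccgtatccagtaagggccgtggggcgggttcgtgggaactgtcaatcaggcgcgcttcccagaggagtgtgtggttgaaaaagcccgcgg
ZNF443: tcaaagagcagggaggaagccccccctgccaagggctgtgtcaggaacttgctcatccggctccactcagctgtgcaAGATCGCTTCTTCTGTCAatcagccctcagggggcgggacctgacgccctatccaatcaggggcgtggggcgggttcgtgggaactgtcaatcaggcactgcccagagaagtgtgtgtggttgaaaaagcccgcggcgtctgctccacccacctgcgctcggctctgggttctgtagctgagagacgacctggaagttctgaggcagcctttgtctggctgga

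Among the 15843 protein-coding promoters of the table, these 4 were the only holders of the exact stretch. The stretch was looked for after the calls were seen, and it is a description with no test. It was picked as shared by promoters with calls, so calls at its exact holders are no result about the stretch. The same holds for their contrast with the near matches below. The 4 promoters also have other, shorter runs of letters in common, which are not in capitals. In ZNF799 and ZNF443 the stretch lay inside the called region, which covered 276 and 291 of the 300 promoter bases. In ZNF823 and ZNF44 it lay outside: their regions reached 32 and 41 bases into the promoter from the gene side. Allowing up to 3 mismatches, 18 promoters of chromosome 19 ZNF-number genes held a like stretch, and the other 14 had no region on the promoter in any library. ZNF563 (1 mismatch) and ZNF441 (2 mismatches) lie in the same block of genes. The other 12, among them ZNF91 and ZNF93, which are known to silence retrotransposons in primates, lie between ZNF101 and ZNF254. ZNF441 did have a region inside the gene span (chr19:11767170-11768132), called in 9 libraries at a median percentile of 59.0. It began beyond the end of the promoter, so the count of 14 depends on where the promoter window ends. How reads that map to several near-identical copies were handled is not given in the sources used here, and its part in these calls was not tested.

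Percentiles below are ranks of the authors' peak score within a library's own list, where 100 is the strongest peak of that list. The ZNF823 region (chr19:11736414-11738928) ranked at percentiles of 97.4 and 94.95 in A442M-FLAG, 98.8 and 96.8 in G444E-FLAG, 97.8 and 96.7 in WT-FLAG, 96.3 and 94.2 in A442M, 95.9 and 93.4 in G444E, and 89.2 and 89.6 in WT. Both untagged WT libraries were the lowest of the 12. The ZNF44 region (chr19:12293785-12294874) ranked at 88.1 and 70.6 in A442M-FLAG, 91.2 and 84.6 in G444E-FLAG, 86.0 and 85.5 in WT-FLAG, 82.1 and 82.1 in A442M, 80.4 and 78.4 in G444E, and 74.8 and 74.7 in WT. Here 1 A442M-FLAG library was the lowest, so the tagged and untagged libraries overlapped.

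The ZNF799 region (chr19:12400003-12401497) had a median percentile of 77.3 and reached from 42.0 to 88.3, and in every group replicate 1 ranked above replicate 2. The ZNF443 region (chr19:12439994-12441262) was weaker, with a median of 42.7 and a range from 8.51 to 63.7, so a call in every library did not go with a high rank. The neighbour ZNF791 closes the block of 25 genes that begins at ZNF653. Of the 24 genes of that block with a promoter in the table, 5 had a region on the promoter, 4 of them called in all 12 libraries.

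Shares of called promoters in the family are given beside those of all promoters, with no test of the difference. A promoter sequence was found for 210 of the 240 genes. A region overlapped 36 of them (17.1%), against 12.3% of the promoters of other chromosome 19 genes and 14.8% of all promoters. For regions called in 8 or more libraries the count was 15 (7.14%), against 3.38% of other chromosome 19 promoters and 3.38% of all promoters. For regions called in all 12 libraries it was 8 (3.81%), against 1.85% of other chromosome 19 promoters and 1.38% of all promoters. Beside ZNF823, ZNF44, ZNF799 and ZNF443, these 15 were ZNF765, ZNF615, ZNF565 and ZNF146 (1 region shared by both), ZNF428, ZNF235, ZNF234, ZNF296, ZNF773, ZNF616 and ZNF587. The ZNF765 promoter (chr19:53394899-53395198, plus strand) ranked next after ZNF799 by median percentile, at 66.7, and is shown for that rank. It does not hold the shared stretch and has no letters in capitals. Like the rest of the 15, it holds no GATA motif of the form searched. Its called region covered 66 of the 300 promoter bases, so most of the sequence shown lies outside that region. Among the 15 this cover ran from 11 bases at ZNF565 to all 300 at ZNF234 and ZNF296.
ZNF765: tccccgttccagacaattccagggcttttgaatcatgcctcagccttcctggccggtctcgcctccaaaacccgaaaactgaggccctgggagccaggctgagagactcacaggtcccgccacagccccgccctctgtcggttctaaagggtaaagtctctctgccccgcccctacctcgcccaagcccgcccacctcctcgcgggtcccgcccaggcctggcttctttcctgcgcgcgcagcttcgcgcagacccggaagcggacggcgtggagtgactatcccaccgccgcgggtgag

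The letters GATA with A or T before them and A or G after them, 4 motifs of 6 letters, were searched on both strands, and matches may overlap. At least 1 of them stood in 42 of the 210 family promoters (20.0%), against 19.7% of all promoters. Of the 36 promoters with a region 5 held one (13.9%), and of the 15 called in 8 or more libraries none did. The shorter letters GATA, on either strand, stood in 56.2% of the family promoters, in 66.7% of those 15 and in 43.1% of all promoters. The median GC content of the family promoters was 60.0%, against 62.7% of all promoters. A region is wider than the part of it that lies on a promoter, so these letters describe the promoter window and not the whole region.

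Most regions of the family lay away from gene starts. Of the 254 regions 166 (65.4%) lay inside a ZNF-number gene span and 88 in the flanks, and 35 (13.8%) overlapped a promoter of the family. The 35 promoter regions were called in a median of 5 libraries and were 490 bp long at the median. The other 219 were called in a median of 3 libraries and were 404 bp long. The centre of 52 regions was within 1 kb of a gene start of the family, and 51 regions also lay within 10 kb of a protein-coding gene outside it. Exons and introns were not analysed here.

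GATA3 regions were fewer per Mb at these genes than at other genes, in every library. ZNF-number genes of chromosome 19 had 10.4 ± 2.23 called regions per Mb of windows, against 14.3 ± 4.26 for the other 1211 protein-coding genes of the chromosome (SD, n = 12 libraries). The mean difference within a library was -0.44 ± 0.22 on the log2 scale (SD), lower in 12 of 12 libraries (exact permutation test over signs, two-sided, p = 0.000488, adjusted p = 0.000814 over 5 comparisons; this p is the smallest that 12 libraries can give). Protein-coding genes of the other chromosomes had 14.9 ± 3.67 regions per Mb, a difference of -0.52 ± 0.114. The 237 ZNF-number genes of other chromosomes had 13.3 ± 3.18, a difference of -0.35 ± 0.108. Both were lower in 12 of 12 libraries, with the same exact p and adjusted p. The libraries read the same genome, so the test speaks of how the difference repeated over libraries and not of other positions.

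**Figure D1:**
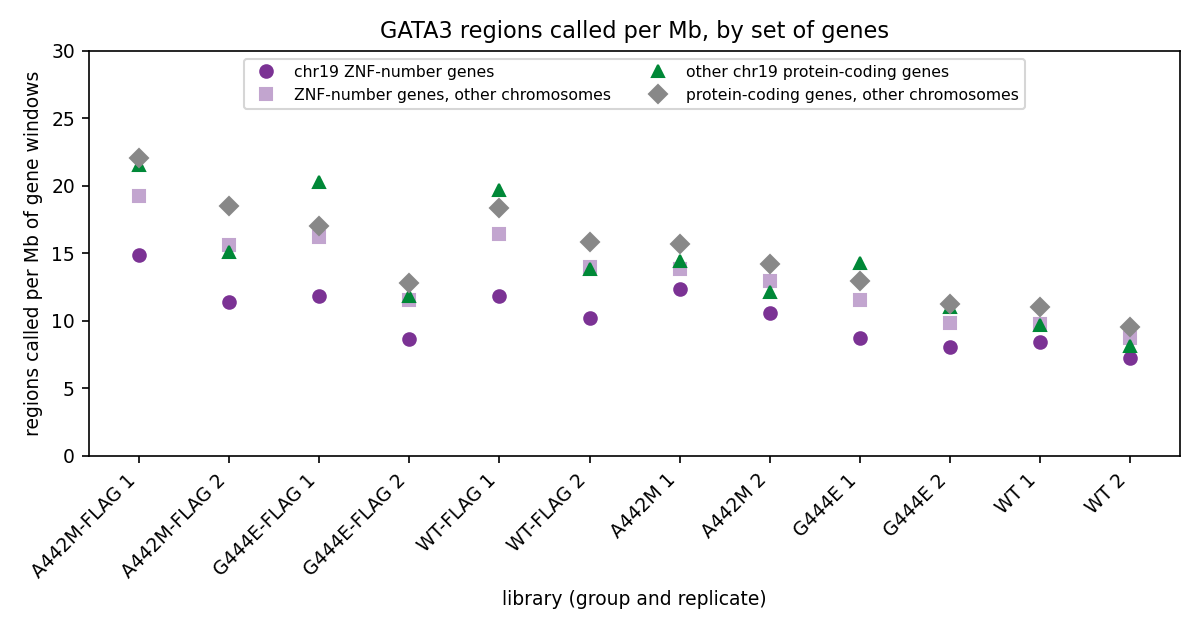
Called GATA3 regions per Mb of gene windows (y axis) in each of the 12 libraries (x axis), for ZNF-number genes of chromosome 19 (purple circles) and 3 other sets of protein-coding genes. The purple circle is the lowest of the 4 points in every library.

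A split between libraries went with the size of this difference. Untagged WT and A442M libraries had from 57 to 110 peaks on unplaced contigs, and the other 8 libraries had from 16 to 25. Against other chromosome 19 genes the difference was -0.19 in those 4 libraries (from -0.22 to -0.16) and -0.56 in the other 8 (from -0.77 to -0.41). Over the 8 libraries alone the adjusted p was 0.0130 (exact permutation test, two-sided). The labels name no batch, and the part of this split in the difference was not tested.

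The share of widely called regions at the family was near that of other regions. Of its 254 regions 35 (13.8%) were called in all 12 libraries, against 12.8% at other chromosome 19 genes and 13.8% of all 78999 regions. Regions called in a single library made up 76 (29.9%), against 24.2% and 23.5%. The median region was 415 bp long, against 452 bp at other chromosome 19 genes. Of the 240 genes 158 (65.8%) had a region in their window and 82 had none; among other chromosome 19 genes 59.0% had one, in spans with a median of 12.8 kb, against 23.1 kb for the family. A region called in all 12 libraries stood at 36 of the 240 genes (15.0%). The share was 13.5% of other chromosome 19 genes and 23.4% of genes of other chromosomes. Among ZNF-number genes of other chromosomes it was 15.2%, and 65.8% of them had a region in their window, so both shares were near the family's.

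**Figure D2:**
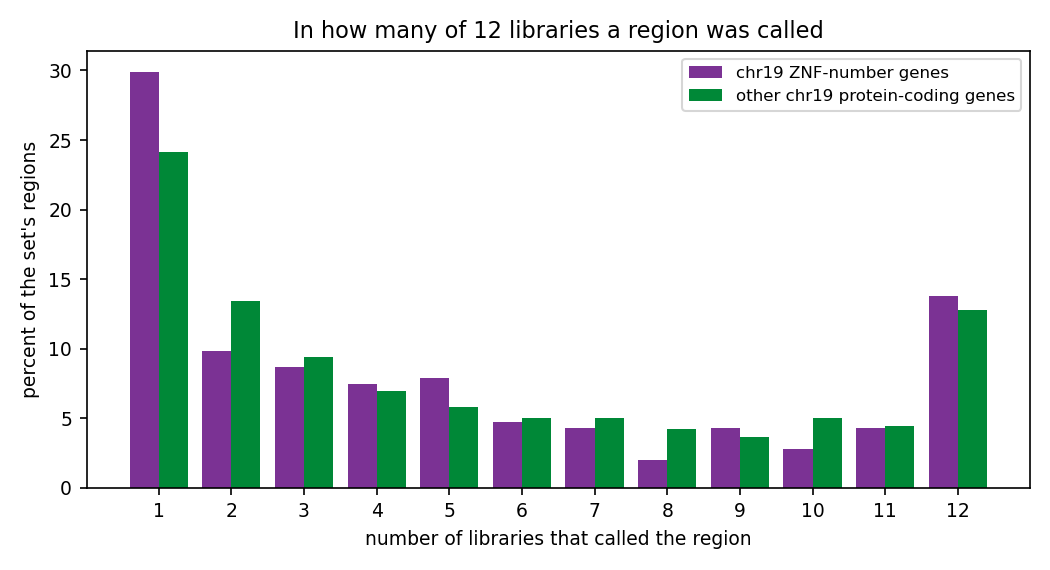
Percent of regions (y axis) by the number of libraries that called them (x axis), for the 254 regions of the family (purple) and the 1088 at other protein-coding genes of chromosome 19 (green). Both sets have a peak at 1 library (29.9% and 24.2%) and another at 12 libraries (13.8% and 12.8%).

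The rank of called regions was set beside that at other genes. Within a library the median percentile over the family's called regions averaged 47.0, against 46.3 at other chromosome 19 genes (difference 0.70 ± 3.66, SD, n = 12; p = 0.526, exact permutation test, two-sided, the same after adjustment). That difference turned to between -2.52 and -1.24 under 4 alternative settings, and with lists cut to equal length, at -2.52, it passed (adjusted p = 0.0165, exact permutation test). Against genes of the other chromosomes, at 50.3, it was lower by 3.29 ± 2.81 percentile points, in 10 of 12 libraries (exact p = 0.00488, adjusted p = 0.0061). That second difference did not pass with peaks of a score of at least 10, with lists cut to equal length or without the genes from ZNF101 to ZNF254. ZNF-number genes of other chromosomes, not tested for rank, had group means of the median percentile from 36.4 (G444E) to 46.8 (A442M). Those of the family ran from 45.1 (A442M) to 50.7 (WT).

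The low density was uneven along the chromosome, and 1 stretch of the short arm near the centromere carried much of it. Windows less than 1 Mb apart were joined into blocks, after the values were seen, and 7 blocks held 15 or more genes. From ZNF101 to ZNF254 (chr19:19658153-24139968) 37 genes covered 2.23 Mb and had 24 regions, or 10.8 per Mb, none of them called in all 12 libraries. This block holds ZNF91, ZNF93, ZNF43, ZNF85, ZNF90, ZNF208 and ZNF431, members of a primate-expanded cluster. Protein-coding genes outside the family in the same stretch had 1 region in 0.133 Mb of windows, or 7.52 per Mb. The family was thus not the lower of the 2 sets there. Without this block the difference from other chromosome 19 genes was -0.17 on the log2 scale, lower in 9 of 12 libraries (adjusted p = 0.0374, exact permutation test). That from genes of other chromosomes was -0.25, lower in 12 of 12 (adjusted p = 0.00244, exact). That from ZNF-number genes of other chromosomes was -0.08, lower in 8 of 12 (adjusted p = 0.0374, exact; all two-sided).

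Calls in that block, described here after its values were seen, differed widely between libraries. A442M-FLAG libraries called 15 and 11 of the 24 regions, G444E-FLAG 5 and 4, WT-FLAG 7 and 4, A442M 12 and 7, G444E 1 and 1, and WT 6 and 4. Both A442M-FLAG libraries and A442M replicate 1 were the high ones and both untagged G444E libraries the low ones. List length differed too: over the whole genome A442M-FLAG libraries called 50134 and 42321 regions, G444E 30240 and 26307, and WT 27987 and 24575. The part of list length in the counts of this block was not tested. The most widely called region of the block was in ZNF493 (chr19:21402845-21403236), found in all 6 FLAG libraries, 1 A442M and 1 G444E library and no WT library, at a median percentile of 66.0. A region inside ZNF14 was also called in 8 libraries, at a median percentile of 10.03.

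The densest of these 7 blocks ran from ZNF175 to ZNF331 on the long arm, with 39 genes, 1.58 Mb, 60 regions (38.0 per Mb) and 12 regions called in all 12 libraries. It was called at between 13.95 and 22.8 regions per Mb in single libraries, against between 0.449 and 6.73 from ZNF101 to ZNF254. From ZNF653 to ZNF791, 25 genes had 33 regions (35.8 per Mb), 6 of them in all 12 libraries. From ZNF575 to ZNF296, 24 genes had 31.5 regions per Mb, none in all 12. From ZNF628 to ZNF446, near the end of the long arm, 57 genes had 43 regions (26.6 per Mb) and 3 in all 12. From ZNF565 to ZNF573 there were 25.8 per Mb with 6 in all 12, and from ZNF557 to ZNF846 25.3 per Mb with 3 in all 12. In the same stretches, genes outside the family had 71.3 regions per Mb from ZNF175 to ZNF331 and 54.2 from ZNF575 to ZNF296. They had 41.9 from ZNF653 to ZNF791 and 29.9 from ZNF557 to ZNF846, all above the family. From ZNF565 to ZNF573 and from ZNF628 to ZNF446 they had 9.34 and 6.72, below the family. The direction thus differed between blocks, in some on few regions, and was not tested. ZNF536, a neuronal repressor with the widest window of the single genes (0.508 Mb), had no region.

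**Figure D3:**
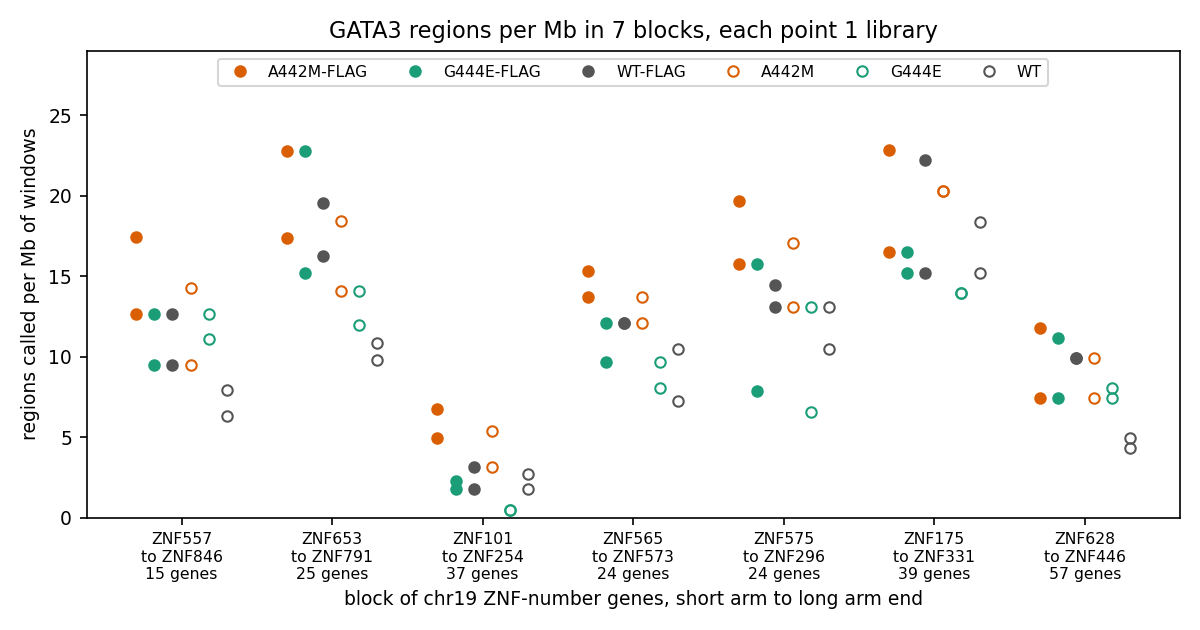
Called GATA3 regions per Mb of windows (y axis) in 7 blocks of ZNF-number genes in chromosome order (x axis); each point is 1 library, filled for FLAG and open for untagged. The block from ZNF101 to ZNF254 lies at or below 6.73 per Mb in every library, below all points of the block from ZNF175 to ZNF331.

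Single merged windows also differed in density, described here for 6 of those with the most genes. The window from ZNF613 to ZNF836 held 8 genes and 14 regions (53.0 per Mb), and that from ZNF441 to ZNF763 held 7 genes and 11 regions (47.1 per Mb). The largest by genes, from ZNF45 to ZNF227, held 12 genes and 8 regions (23.2 per Mb), none in all 12 libraries. The window from ZNF766 to ZNF611 held 11 genes and 18 regions (37.1 per Mb). The windows from ZNF260 to ZNF850 and from ZNF875 to ZNF571 held 6 and 7 genes with 8 regions each. The windows from ZNF845 to ZNF331, from ZNF579 to ZNF580 and from ZNF772 to ZNF416 also held 6 genes, with 7, 2 and 6 regions.

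The strongest region of the family lay inside ZNF577, which also overlaps the span of FPR3, a formyl peptide receptor gene. That region (chr19:51821557-51823275) ranked at percentiles of 96.1 and 99.1 in A442M-FLAG, 97.2 and 98.6 in G444E-FLAG, 96.6 and 98.4 in WT-FLAG, 97.2 and 98.5 in A442M, 90.6 and 95.5 in G444E, and 95.4 and 95.7 in WT. It was among the top 10% of peaks in each of the 12 lists. ZNF577 had 6 regions in its window, 4 of them called in all 12 libraries, more than any other gene of the family. Another of these (chr19:51807098-51807665) also overlapped the span of FPR3. It had a median percentile of 91.7 and was lowest, at 71.8, in A442M-FLAG replicate 2.

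After the ZNF823 region, given above with its promoter, came a region inside ZNF571 (chr19:37572175-37572832). It ranked at 99.3 and 98.9 in A442M-FLAG, 93.7 and 93.0 in G444E-FLAG, 95.9 and 96.5 in WT-FLAG, 97.7 and 97.7 in A442M, 89.9 and 87.6 in G444E, and 94.5 and 87.8 in WT. Both A442M groups lay above both G444E groups, with no overlap, while WT-FLAG lay between them and WT overlapped G444E. The region was named for its rank, and this order was not tested. ZNF331, an imprinted gene, had a region (chr19:53535728-53536616) with a median of 88.8 and a lowest percentile of 78.7, in WT replicate 1.

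The rest of the 10 strongest were regions beside ZNF414 (median 85.2), inside ZNF841 (84.0), beside ZNF175 (83.7), inside ZNF568 (83.1) and beside ZNF383 (83.1). The ZNF414 region lay 3396 bp, the ZNF175 region 4015 bp and the ZNF383 region 7101 bp from the gene span, and the last stood inside the neighbour ZNF585B. The mouse counterpart of ZNF568 is known as a repressor of a placental Igf2 transcript. The ZNF568 region (chr19:36996325-36997638) spread the most of the 10, and its lowest ranks were in G444E-FLAG replicate 2 and both untagged G444E libraries.

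**Figure D4:**
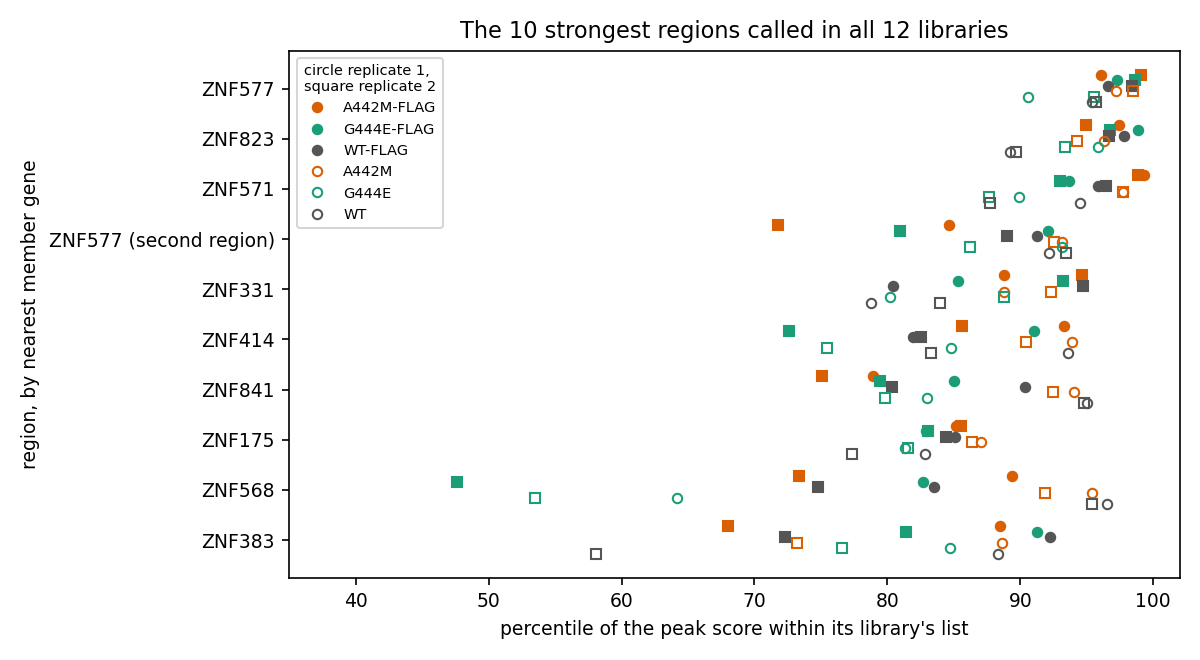
Percentile of the peak score within its list (x axis) for the 10 strongest regions called in all 12 libraries (y axis, by nearest gene); circles are replicate 1 and squares replicate 2, filled for FLAG and open for untagged. The top region, in ZNF577, lies at or above 90.6 in every library, while the ZNF568 region spreads most widely.

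By number of regions ZNF420 led, a KRAB gene whose protein (APAK) is known as a brake on p53, with 7 regions in a span of 122 kb and none called in all 12 libraries. ZNF331, ZNF175 and ZNF83 had 5 each, and 11 genes had 4 each, among them ZNF792, ZNF44 and ZNF440, which had the most regions called in all 12 libraries or came first by symbol where tied. At the other end 76 genes had 1 region, 48 had 2 and 18 had 3. A long span holds more sequence, and these counts are per gene and not per Mb.

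The tag and the mutations were compared by density and by the share of a library's called regions that lay at the family. FLAG libraries had 11.5 ± 2.09 family regions per Mb and untagged libraries 9.24 ± 1.89 (SD, n = 6 each), a log2 difference of 0.32 (p = 0.0463, adjusted p = 0.278 over 10 comparisons; exact permutation test within genotype, two-sided). The share was 0.293% ± 0.0132 in FLAG libraries and 0.308% ± 0.0112 in untagged libraries (exact p = 0.0556, adjusted p = 0.278). FLAG lists were longer on the whole, and density and share thus pointed in opposite directions. With lists cut to equal length the density difference was -0.07, and within the G444E groups, the only genotype whose tagged and untagged libraries were alike in peaks on unplaced contigs, the share difference was 0.000839 percentage points.

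A442M libraries, tagged and untagged together, had 12.3 ± 1.88 family regions per Mb and WT libraries 9.44 ± 2.02 (SD, n = 4 each), a log2 difference of 0.40 (exact p = 0.111, adjusted p = 0.278). G444E libraries had 9.32 ± 1.73 (n = 4), a log2 difference of -0.01 from WT (exact p = 1). Between A442M and G444E the log2 difference was 0.41 (exact p = 0.111, adjusted p = 0.278), and between all 8 mutant and the 4 WT libraries it was 0.19 (exact p = 0.28, adjusted p = 0.476). These comparisons share the WT libraries or the mutant ones. With 36 arrangements the smallest 2-sided p was 0.0556. With lists cut to equal length the A442M difference from WT was -0.13 and that from G444E -0.13.

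As a share of each library's regions the family held between 0.274% and 0.327% in all 12 libraries, so its count followed the length of the list. The share was 0.303% ± 0.0219 in A442M and 0.303% ± 0.00883 in G444E libraries, against 0.295% ± 0.0106 in WT libraries (SD, n = 4 each), and neither difference passed (adjusted p = 0.556 and 0.476, exact permutation tests). Lists ranged from 25248 to 51694 peaks.

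Single regions were then compared by Fisher's exact test on calls (two-sided), adjusted over all regions of the genome whose number of calls could reach p = 0.05. Between 6 FLAG and 6 untagged libraries 43 of the 254 family regions could be tested, and 0 passed in either direction, as among all 11777 regions tested (0.0% called; smallest adjusted p = 0.104 by that exact test). Unadjusted, 4 of the 43 were called more often in FLAG libraries and 1 less often, against 11.3% and 1.63% of all regions tested. The share of the family was near that background. On simulated lists this test passed the adjustment only where a large number of regions changed, so a count of 0 does not show that single regions were called alike.

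The 4 regions with more FLAG calls lay at ZNF175, ZNF101, ZNF763 and ZNF114. The ZNF175 region (chr19:51568374-51568757, 2525 bp outside the gene span) was called in both A442M-FLAG libraries at 65.8 and 51.9, in 1 G444E-FLAG library at 49.9 and in both WT-FLAG libraries at 44.5 and 54.9, and in none of the 6 untagged libraries (unadjusted p = 0.0152, exact). The ZNF101 region (chr19:19664092-19664422) was called in all 6 FLAG libraries and in 1 A442M library. It lies within 10 kb of ATP13A1 too. The ZNF763 and ZNF114 regions were weak, with median percentiles of 10.7 and 7.60.

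The 1 region with fewer FLAG calls lay inside ZNF83 (chr19:52661091-52661529). It was called in 1 WT-FLAG library at 69.6 and in no other FLAG library. All 6 untagged libraries called it, at 63.9 and 46.3 in A442M, 62.4 and 61.2 in G444E, and 88.3 and 81.2 in WT. A region in ZNF285 (chr19:44389190-44389814) was found in 1 of 6 FLAG and 5 of 6 untagged libraries, and did not pass Fisher's exact test at an unadjusted p of 0.05. Regions in ZNF841 (chr19:52090722-52091113) and ZNF254 (chr19:24075532-24076132) were called in both A442M and both WT untagged libraries and in no other. These are the 4 libraries with the most peaks on unplaced contigs. How many of all regions have this pattern was not computed here.

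Between the 8 mutant and 4 WT libraries 88 family regions could be tested and 0 passed, as among all 26654 regions tested (0.0% called). Unadjusted, 1 was called more often in mutant libraries, against 0.206% of all regions tested, and 0 less often, against 0.105%. That 1 region lay inside ZNF562 (chr19:9652935-9653623) and was called in 7 of 8 mutant and 0 of 4 WT libraries (unadjusted p = 0.0101, exact). Its ranks were low: 19.4 and 34.8 in A442M-FLAG and 1.47 and 21.5 in G444E-FLAG. In untagged libraries they were 13.1 in 1 A442M library, and 3.70 and 12.5 in G444E. On the other side, regions in ZNF227 (chr19:44221253-44221603) and beside ZNF613 (chr19:51921899-51922299) leaned most to WT. Each was called in 3 of 4 WT and 1 of 8 mutant libraries (unadjusted p = 0.0667, Fisher's exact test). Their median percentiles were 32.1 and 3.36.

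Pairs of groups were described by the regions that both libraries of one side called and neither library of the other did, as a share of family regions called in any of the 4 libraries. With 2 against 2 libraries an exact permutation test cannot go below p = 0.3333, so no test was made. Among untagged libraries 10 of 169 family regions (5.92%) were called in both A442M libraries alone and 0 in both WT libraries alone, against 11.0% and 1.08% over all regions. For G444E against WT the counts were 8 and 8 of 143 (5.59% each), against 8.72% and 6.27%. For A442M against G444E they were 14 and 1 of 171 (8.19% and 0.585%), against 8.28% and 1.38%. The shares at the family were at or below those over all regions in each of these pairs. With lists cut to equal length the counts were 4 and 2 for A442M against WT and 4 and 4 for G444E against WT. For A442M against G444E they were 3 and 4, so this pair changed direction. Shares over all regions with equal lists were not computed here, so this change is not shown to be a trait of the family.

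Among FLAG libraries 16 of 201 family regions (7.96%) were called in both A442M-FLAG libraries alone and 2 (0.995%) in both WT-FLAG libraries alone, against 7.15% and 1.89% over all regions. G444E-FLAG against WT-FLAG gave 3 and 5 (2 and 1 with equal lists) of 174 (1.72% and 2.87%), against 0.659% and 3.11%. A442M-FLAG against G444E-FLAG gave 18 and 5 of 197 (9.14% and 2.54%), against 11.0% and 1.38%. The A442M-FLAG side was the larger in both of its pairs, at the family as over all regions, with lists as deposited. With lists of equal length it was smaller at the family, with 6 and 8 regions against WT-FLAG and 6 and 9 against G444E-FLAG. No share over all regions was computed with equal lists, so this turn is not shown to be particular to the family. The G444E-FLAG side against WT-FLAG and against A442M-FLAG stood above its background, with counts of 3 and 5.

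For the tag, 22 of 172 family regions (12.8%) were called in both WT-FLAG libraries alone and 4 (2.33%) in both WT libraries alone, against 16.8% and 4.34% over all regions. A442M-FLAG against A442M gave 14 and 11 of 212 (6.60% and 5.19%), against 12.5% and 4.71%. G444E-FLAG against G444E gave 5 and 1 of 151 (3.31% and 0.662%), against 3.57% and 0.7%. With lists cut to equal length the counts were 10 and 7 for WT, 8 and 11 for A442M and 2 and 2 for G444E. The FLAG side was then no longer the larger in the A442M and G444E pairs. Whether the same holds over all regions with equal lists was not computed here.

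**Figure D5:**
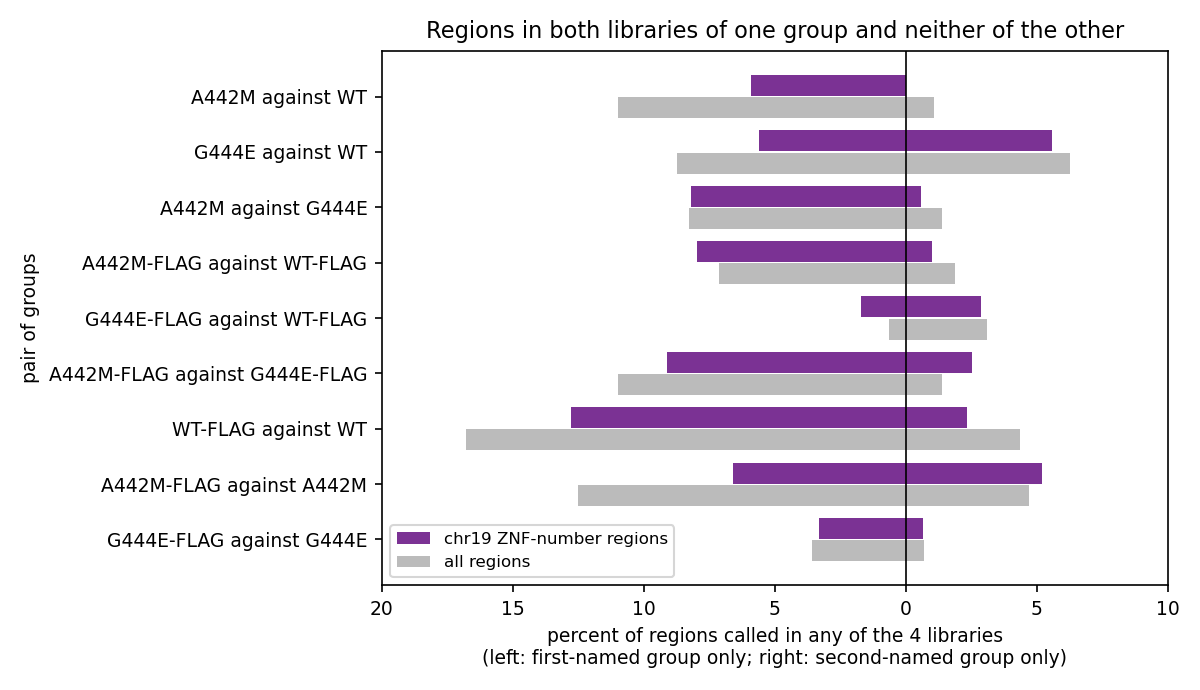
Percent of regions that both libraries of one side called and neither of the other did (x axis, first-named group to the left and second-named to the right) for 9 pairs of groups (y axis), at the family (purple) and over all regions (grey). The A442M-FLAG against A442M pair has bars of 6.60% and 5.19% at the family, against 12.5% and 4.71% over all regions. With lists of equal length the family's sides are 8 and 11 regions, and shares over all regions were not computed.

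A few regions carried these patterns with high ranks. A region beside ZNF414 (chr19:8504144-8504770, 4907 bp outside the gene and within 10 kb of PRAM1) was called in every library except both of untagged WT. It ranked at 95.1 and 95.3 in A442M-FLAG, 93.5 and 86.1 in G444E-FLAG, 92.0 and 92.5 in WT-FLAG, 77.1 and 76.0 in A442M, and 84.3 and 76.4 in G444E. The FLAG libraries lay above the untagged ones with no overlap. Regions of ZNF846 (chr19:9796122-9796516) and ZNF420 (chr19:37060954-37061676) were also missed by both untagged WT libraries, and each was called in 9 libraries. The share of all regions missed by untagged WT alone was not computed here.

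Other regions were missed by the A442M-FLAG libraries alone or nearly so. A region in ZNF611 (chr19:52715847-52716371) was absent from both A442M-FLAG lists and ranked at 73.3 and 83.0 in G444E-FLAG, 78.0 and 77.9 in WT-FLAG, 85.1 and 87.1 in A442M, 80.1 and 90.9 in G444E, and 94.2 and 94.9 in WT. Every other library thus placed it in its upper ranks. A region in ZNF792 (chr19:34962346-34962850) was absent from both A442M-FLAG lists and from 1 WT-FLAG list, and ranked at 98.0 and 94.7 in WT. The reverse pattern was seen in ZNF649 (chr19:51889023-51889389), beside ZNF439 (chr19:11843760-11844123) and in ZNF43 (chr19:21838763-21839102). These were called in both A442M-FLAG libraries and in no other, at median percentiles of 68.3, 67.7 and 67.2. Shares of all regions with these patterns over the 12 libraries were not computed here, so the patterns are not shown to be traits of the family.

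A region beside ZNF419 (chr19:57487428-57487736) was called at 72.8 in 1 G444E-FLAG library and at 62.3 and 56.2 in both G444E libraries, and in no other. Regions of ZNF600 and ZNF100 (chr19:21749208-21749601) were seen in A442M libraries and in none of the G444E or WT ones. The ZNF100 region was called in all 4 A442M libraries, tagged and untagged, at a median percentile of 31.1. No family region was called in every FLAG library and in no untagged one. The share of all regions with that pattern, or with those of ZNF419, ZNF600 and ZNF100, was not computed here. Neither this absence nor those patterns are thus shown to be a trait of the family.

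The partners through which KRAB zinc-finger proteins act were looked up as a separate list of 20 genes on all chromosomes. Of these, 16 had a GATA3 region within 10 kb, against 69.9% of all protein-coding genes. Regions called in all 12 libraries stood at 4 of the 20, against 22.7% of all genes. They were at CBX5, which encodes HP1-alpha (2 of its 7 regions), HDAC1, a histone deacetylase, DAXX, a histone chaperone, and SETDB2. The corepressor TRIM28 itself had no region, nor did CBX3 (HP1-gamma), MPHOSPH8, a HUSH complex subunit, or MORC2, which acts with that complex. SETDB1 had 1 region, called in a single WT-FLAG library at a percentile of 4.09.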

How the data were processed

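GATA3 ChIP-seq peak lists of 12 libraries were used. The submitters' processing notes name MACS2 (2.1.4), FastQC and the build hg38. For the aligner, control, filters, read depth and multiply mapped reads, the method is not given in the sources used here. A deposited list holds 1 library's peaks in 5 columns. The score in the last is the authors' own value, at least 5 in every list, and served only for ranks and filters inside that list. Depth is unknown, so no counting interval was computed.

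Peaks of all lists were merged at an overlap of 1 bp, and a library called a region where it had a peak. The members and lists were chosen with earlier results of these data known. Genes and promoters came from RefSeq (GRCh38.p14), and all 240 symbols were matched by name; a promoter is 250 bases before to 50 after the start. A window is a gene span plus 10 kb on either side. A region's percentile is that of its highest peak in the list. Densities, shares and median percentiles were tested by exact permutation over libraries, and calls by Fisher's exact test, with Benjamini-Hochberg adjustment; both were checked on simulated data. Regions are named by the nearest member. Names were taken from the 10 strongest regions called in all libraries and up to 6 regions a side for tag and mutation. They also came from up to 3 regions a side for each pair of groups and the 8 genes with the most regions. The 6 largest windows and the list of 20 partner genes were used too, and not every entry is in the text. Promoters shown are the 4 highest by median percentile among those called in 8 or more libraries, with ZNF443 added for the shared stretch. Blocks of windows and the shared stretch were chosen after the values were seen.

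Same-numbered replicates deviated together in all 15 pairs of groups (correlation of replicate differences across regions from 0.113 to 0.290). Numbers were therefore taken to pair libraries in the alternative with a replicate block, from the data and not the labels. The main tests between groups did not use this pairing. Replicate 1 also had the longer list in every group, and the part of list length in these correlations was not tested. The peak lists hold no column of other samples. Alternatives were windows of 0 kb, a score of at least 10, lists of equal length (25248 peaks), a minimum cover of 50% of a region for a call, leaving out each library, a replicate block and libraries alike in peaks on unplaced contigs. Python 3.11.15, pandas 2.3.3, numpy 2.4.6, scipy 1.17.1 and matplotlib 3.10.9 were used.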

Additional observations from a re-analysis of the deposited data

How the results depend on the processing

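Of the alternatives 300 kept the direction and, where tested, the side of the threshold. Another 26 reversed a direction, 12 moved a count by over 1.5 times and 3 ended a call. Apart from reruns that left out 1 library, these numbers were 105, 17, 12 and 3. The lower density at family windows kept its direction under every alternative run and passed in each that gave a p. The percentile difference from other chromosomes was -1.06 with a score of at least 10, -1.43 with equal lists and -1.92 without the genes from ZNF101 to ZNF254 (an alternative chosen after seeing the data), and no longer passed. That from other chromosome 19 genes was -1.71 with windows of 0 kb, -1.82 with a score of at least 10, -2.52 with equal lists (where it passed, adjusted p = 0.0165, exact permutation test) and -1.24 with calls covering 50% of a region; the cause was not tested.

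Equal lists also gave density differences of -0.0748 (FLAG against untagged), -0.068 (mutants against WT), -0.13 (A442M against WT) and -0.13 (A442M against G444E), and share differences in percentage points of -0.0132 (mutants against WT), -0.0262 (A442M against WT) and -5.91e-05 (G444E against WT). A score of at least 10 gave share differences of -0.00264 (mutants against WT) and -0.00572 (A442M against WT). Calls covering 50% of a region gave -0.0055 (mutants against WT), -0.012 (G444E against WT) and 0.013 (A442M against G444E). Within groups alike on unplaced contigs the FLAG share difference was 0.000839. None of these differences passed its test in the main setting or in these.

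One-sided regions, summed over both sides, numbered 8 (G444E against WT), 9 (A442M against G444E) and 2 (G444E-FLAG against WT-FLAG) with a score of at least 10. With equal lists they numbered 6 (A442M against WT, 4 and 2 by side), 8 (G444E against WT, 4 and 4), 7 (A442M against G444E, 3 and 4), 3 (G444E-FLAG against WT-FLAG, 2 and 1), 15 (A442M-FLAG against G444E-FLAG, 6 and 9) and 17 (WT-FLAG against WT, 10 and 7). Also with equal lists A442M-FLAG against WT-FLAG gave 6 and 8, A442M-FLAG against A442M 8 and 11 and G444E-FLAG against G444E 2 and 2. The shares over all regions were not computed for equal lists. With calls covering 50% of a region they numbered 10 (G444E-FLAG against G444E). Unadjusted Fisher tests named 5 regions for the tag and 1 for the mutations.

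Leaving out each library in turn, the density difference ranged from -0.47 to -0.41 (family against other chromosome 19 genes), -0.53 to -0.49 (other chromosomes), -0.37 to -0.33 (ZNF-number genes elsewhere), 0.24 to 0.39 (FLAG against untagged), 0.13 to 0.26 (mutants against WT), 0.30 to 0.49 (A442M against WT), -0.13 to 0.11 (G444E against WT) and 0.29 to 0.52 (A442M against G444E). Share differences ranged from -0.0200 to -0.0116, 0.00491 to 0.0104, 0.000113 to 0.0144, 0.0037 to 0.0124 and -0.00793 to 0.00629 for the same 5 contrasts of groups. Percentile differences ranged from -0.0334 to 1.57 (other chromosome 19 genes) and from -3.81 to -2.58 (other chromosomes). Fisher calls stayed at 0. No call changed, and reversals were of differences that did not pass: in G444E against WT density (0.04 without WT replicate 1, 0.02 without G444E replicate 2, 0.04 without WT-FLAG replicate 1, 0.11 without G444E-FLAG replicate 2) and A442M against G444E share (0.00629, 0.00375, 0.0062 and 0.00259), and the percentile difference from other chromosome 19 genes (-0.0334 without A442M-FLAG replicate 2).

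With the replicate block no difference between groups passed, as without it: the FLAG density difference was 0.32 (exact p = 0.0312, adjusted p = 0.312). For family windows against other windows the block gave the same mean differences and no p. Fingers per protein, a planned description, could not be counted because no protein sequences were used here. Depth is unknown.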
